A study of Mus musculus and Homo sapiens with 22 samples.

Results

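N6-methyladenosine (m6A) sites that lay close together were examined in mouse heart RNA. Of the 46421 sites listed for 1000 ng of heart RNA, 45435 lay inside a gene body on the same strand, and 3376 of these had another listed site of that strand within 10 nt. They made up 7.43% of the sites in gene bodies (95% Wilson interval 7.19 to 7.68%) and formed 1658 clusters in 1403 genes. The other 42059 sites in gene bodies are called isolated. The members were chosen by their distances in this same list, so the number, size and spacing of the clusters, and each comparison with isolated sites of the list, are descriptions without a test.

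The sites came from miCLIP2, in which an antibody against m6A is crosslinked to RNA with UV light and the position of the modified base is read from the place where reverse transcription stops. The m6Aboost classifier had then told m6A from background peaks. Its inputs were the surrounding bases, the transcript region, the strength of the signal and the number of C-to-T changes just after the peak. According to the paper, it was trained on peaks of mouse embryonic stem cells, sorted by their change in Mettl3 knockout cells. The 4 heart libraries, at 1000, 300, 100 and 50 ng of poly(A)+ RNA, were made from purchased murine heart RNA (Takara Clontech), with 1 library at each input, and strain, age, sex and number of animals were not given in the sources used here. Beside them stood the site lists of wild-type mouse embryonic stem cells (WT mESC), made from 3 replicates, and of the human kidney-derived line HEK293T, made from 4 replicates, each as 1 list without values per replicate. The lists give no read depth, so intervals over sites cover counting error only, and sites of a cluster share their gene, reads and surrounding bases and are not replicates of each other. Column 5 of the heart lists holds a score of unstated scale, which was used only as a rank within a list, given as a percentile over the sites in gene bodies.

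m6A is written into nascent mRNA by a nuclear methyltransferase complex around METTL3 and METTL14, mostly at adenosines within the motif DRACH, in which D is A, G or U, R is A or G and H is A, C or U. The mark is enriched near stop codons and in long exons, and it is read by YTH-domain proteins that affect the decay, splicing and translation of the mRNA. DRACH sequences can follow each other closely but the A of one must lie at least 4 nt from the A of the next, so sites at smaller distances need a member outside the motif.

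The sequences that show how clusters are built are printed first, from the GRCm38 mouse genome (RefSeq), 5′ to 3′ on the strand of the gene, from 4 nt before the first to 4 nt after the last called A, with the called A in capitals. The first 5 are the cluster with the most sites and clusters of 3 sites, 3 of them in repeats. Then come clusters in genes of heart muscle or heart development, of which the first 4 kept 2 members at 300 and at 100 ng. The next 2 hold an A outside DRACH followed 4 nt later by an A in DRACH, and the last 4 are pairs called at adjacent A.
Yap1, 3′ UTR, chr9:7934145-7934173, minus strand: tttaActgaAcacacagActgggaActga
Ppp1r37, coding sequence, chr7:19532280-19532300, minus strand: tcagActcagActcagActct
Hspa5, 3′ UTR, chr2:34776145-34776166, plus strand: aaatActggActcaggaActtt
Ppp2r2a, 3′ UTR, chr14:67016105-67016123, minus strand: gtggActggActggActgt
Ubtd1, coding sequence and 3′ UTR, chr19:42033966-42033990, plus strand: caggActgacggActgacggActga
Ttn, coding sequence, chr2:76713925-76713941, minus strand: aaagAcagtcgaActgg
Bmp10, coding sequence, chr6:87434064-87434078, plus strand: ctggAcctggActca
Cacna1c, coding sequence, chr6:118594003-118594020, minus strand: gtgaActgcagggAcccg
Slc8a1, exon outside the main transcript, chr17:81388057-81388075, minus strand: gtgaAcagtggtgaActgc
Gja1, coding sequence, chr10:56388592-56388606, plus strand: ctggAcacgaActcc
Fabp3, 3′ UTR, chr4:130315320-130315332, plus strand: ttgtAtaaAcatt
Cacna1c, exon outside the main transcript, chr6:118593599-118593611, minus strand: ttgtAtaaAcagt
Coro6, 3′ UTR, chr11:77469583-77469592, plus strand: ctggAActct
Nipsnap2, 3′ UTR, chr5:129757290-129757299, plus strand: cgggAActca
Pln, 3′ UTR, chr10:53344193-53344202, plus strand: aacaAActtt
Ryr2, 3′ UTR, chr13:11553593-11553602, minus strand: aatgAAcaaa

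Most clusters were pairs. Of the 1658 clusters, 1599 had 2 sites, 58 had 3 and 1 had 4, and the median span from the first to the last site was 7 nt with a maximum of 20 nt. The cluster of 4 lay in the 3′ UTR of Yap1, a transcriptional coactivator of the Hippo pathway, and its sites stood in percentiles 77.1, 52.6, 96.8 and 58.0 of column 5 from 5′ to 3′. Only the site in percentile 96.8 was also listed at 300 ng. Of the 174 sites in clusters of 3, 28.7% (22.5 to 35.9%) were listed at 300 ng, against 24.9% (23.5 to 26.5%) of the 3198 sites in pairs. The same window held 5.24% of the sites at 300 ng (459 sites), 2.38% at 100 ng (26 sites) and 0.830% at 50 ng (2 sites), so the share was lower in the shorter lists. In WT mESC it held 7.86% (1999 sites) and in HEK293T cells 11.5% (4182 sites).

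The 1718 neighbouring pairs within 10 nt had a spacing that began at 4 nt. There were 36 pairs at 1 nt, none at 2 nt and 5 at 3 nt, against 185 at 4 nt and between 217 and 289 at each distance from 5 to 10 nt. The count did not step down where the window ended, with 230 pairs at 10 nt and 236 at 11 nt. Sites whose nearest neighbour lay at exactly 10 nt had a median column 5 percentile of 60.6 and those at exactly 11 nt one of 57.7, and 27.6% and 24.6% of them were listed at 300 ng, with overlapping intervals. Both members were at DRACH in 1403 pairs (81.7%), only the 3′ member in 174, only the 5′ member in 117 and neither in 24.

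**Figure D1:**
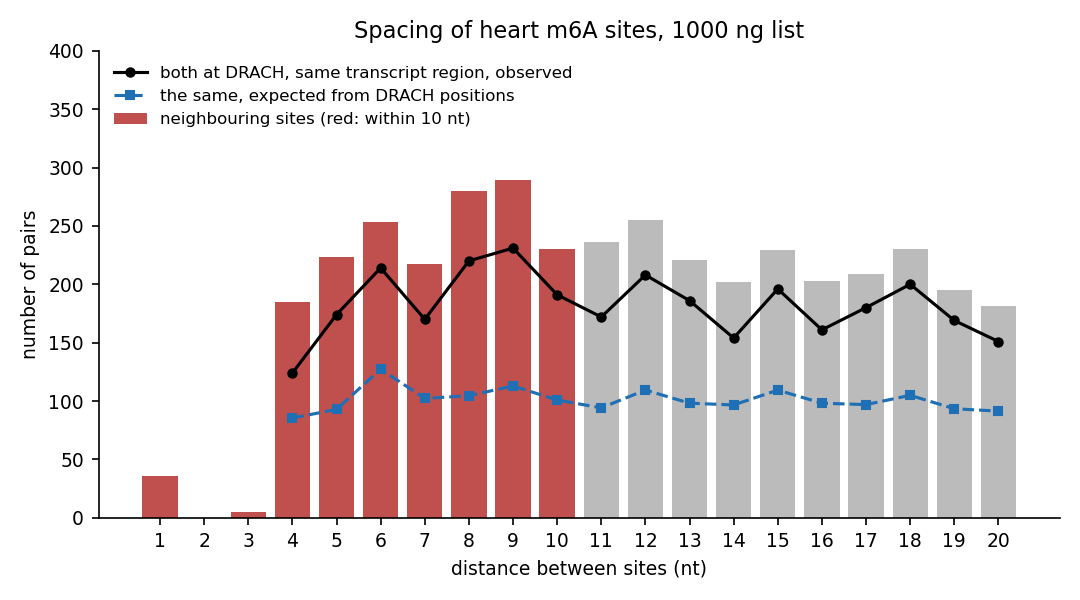
Bars give the number of neighbouring heart sites of the 1000 ng list at each distance in nt, red within the 10 nt window and grey outside it. Black points give pairs of DRACH sites in the same transcript region. Blue squares give the number expected when the DRACH sites of each gene and transcript region are spread evenly over its DRACH motifs. Observed pairs lie above expected pairs at every distance from 4 to 20 nt, for example 231 against 113 at 9 nt.

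How many such pairs the positions of DRACH motifs alone would give was computed by spreading the called DRACH sites of each gene and transcript region evenly over all its DRACH motifs. Over 8311 genes, 39476 of 656673 motifs (6.01%) were called. At 4 to 10 nt, 1324 pairs of called sites stood against 726 expected, a ratio of 1.82 (95% Poisson interval of the count, 1.73 to 1.92). The ratio was 1.80 (1.65 to 1.95) in the coding sequence (CDS) and 1.83 (1.69 to 1.97) in the 3′ UTR. By distance it was lowest at 4 nt, with 124 pairs against 85.4 expected (1.45), and highest at 8 nt, with 220 against 105 (2.10). In the CDS the most pairs were observed at 6 and 9 nt, 110 and 105, which are also the distances with the most expected pairs, 63.3 and 57.9.

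The excess was not limited to the window. The ratio was 1.79 (1.71 to 1.88) at 11 to 20 nt, 1.87 (1.82 to 1.92) at 21 to 50 nt, 1.70 (1.66 to 1.73) at 51 to 100 nt and 1.51 (1.48 to 1.54) at 101 to 200 nt. It came down to 1.17 at 201 to 500 nt and to 0.883 at 501 to 1000 nt. When the expected pairs were computed within stretches of 200 nt of a region, the ratio at 4 to 10 nt was 1.05 (0.990 to 1.11), and when they were computed over whole transcripts it was 2.53 (2.40 to 2.67). Against the density of sites in stretches of 200 nt, the number of close pairs in the 1000 ng list thus did not differ from expectation beyond its counting interval. In the other mouse lists the ratio was larger at 4 to 10 nt, with 2.85 (2.45 to 3.29) at 300 ng and 2.50 (2.33 to 2.68) in WT mESC, and it was 2.19 (2.02 to 2.38) and 2.11 (2.03 to 2.19) at 21 to 50 nt.

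**Figure D2:**
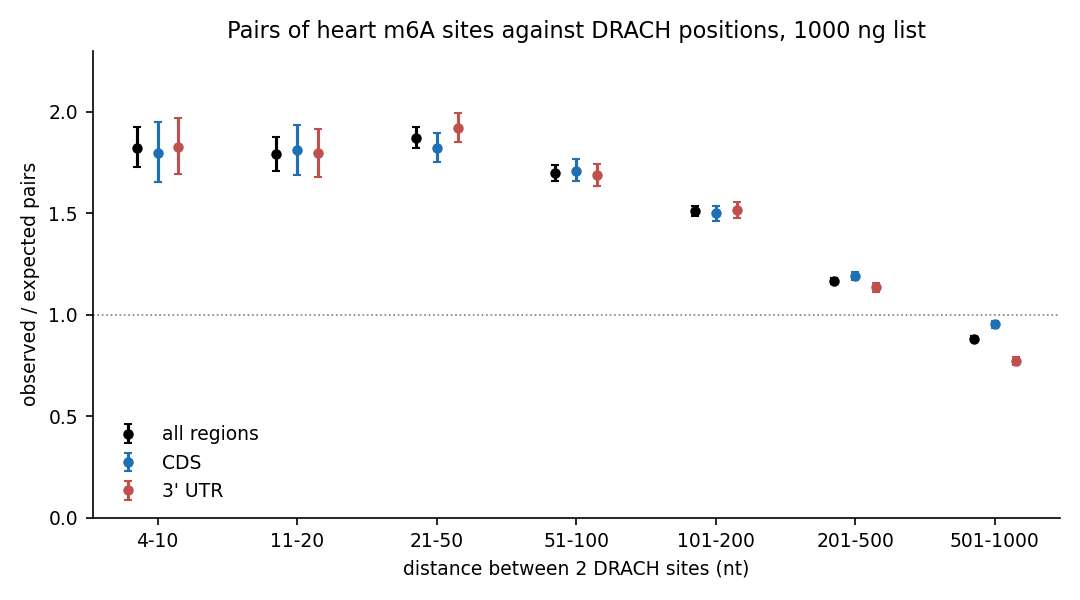
Ratio of observed to expected pairs of DRACH sites in the 1000 ng heart list (vertical axis) by distance in nt (horizontal axis, bins of unequal width), for all regions, the CDS and the 3′ UTR, with 95% Poisson intervals. Up to 100 nt the ratio lies between 1.69 and 1.92 in all 3 series, and beyond 500 nt it is below 1.

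A neighbouring motif, where there was one, was in most cases not called. Another DRACH motif within 10 nt was found around 28.2% of called DRACH sites and around 27.5% of all motifs, and of the called sites with such a neighbour 23.5% had it called too. A motif with a site within 10 nt was itself called in 21.7% of cases (21 to 22.5%), one whose nearest site lay 11 to 50 nt away in 21.2% (20.9 to 21.6%) and one with no site within 50 nt in 4.29% (4.24 to 4.34%). The sequence of the motif divided these shares further. GGACT was called in 69.7% of cases next to a site within 10 nt, in 66.5% at 11 to 50 nt and in 19.1% elsewhere, whereas the figures were 2.51%, 1.84% and 0.210% at the pentamer AAACA. Of the 18 DRACH pentamers, 12 had the larger share within 10 nt and 6 the larger share at 11 to 50 nt. The intervals did not overlap for GGACA (44.2 against 38.2%), for the pentamer GAACT (61.0 against 53.8%) and, at a lower level, for AGACA (13.2 against 10.1%), all larger within 10 nt.

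Compared with isolated sites, clustered sites were less often at GGACT, the motif with the largest share called, which made up 14.5% of clustered and 21.8% of isolated sites, a difference of -7.38 percentage points (95% Newcombe interval -8.60 to -6.10). The GGACT share was related to the distance beyond the window. It was 17.7% (16.6 to 18.9%) at 11 to 20 nt, 19.2% at 21 to 50 nt, 20.3% at 51 to 200 nt and 27.9% beyond 200 nt. DRACH as a whole held 90.2% of clustered and 93.2% of isolated sites (difference -3.03, -4.10 to -2.04). Without sites called at adjacent A, a comparison chosen after seeing the data, this difference was -2.12 (-3.17 to -1.16). GGACA (14.5 against 12.7%), TGACT (9.42 against 7.58%) and AGACA (4.44 against 2.76%) had larger shares among clustered sites, each with an interval of the difference above 0. Since m6Aboost reads the surrounding bases, a neighbouring motif is also part of its input, and its part in these shares was not tested.

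Repeats gave some of the most regular clusters but were not frequent. In 91 pairs the stretch between the sites repeated perfectly, as in the 3 GGACT copies of Ppp2r2a, which encodes a regulatory subunit of protein phosphatase 2A. This count covers distances from 4 nt to below 10 nt, and pairs at 10 nt could not enter it. The 3 sites of Ppp2r2a stood in percentiles 2.78, 52.2 and 57.9 from 5′ to 3′ and none was listed at 300 ng. In Ppp1r37, a regulatory subunit gene of protein phosphatase 1, the 3 AGACT copies stood in percentiles 90.4, 85.7 and 93.8 and all were listed at 300 ng and in WT mESC. Over all DRACH motif pairs at 4 to 10 nt, tandem copies made up 6.38%, and among pairs with both members called they made up 5.29%. The most frequent combination was TGACT followed 4 nt later by the same pentamer, in 21 pairs.

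The 36 pairs at adjacent A shared a sequence. In 35 of them the 5′ A was outside DRACH and the 3′ A inside it, and 32 pairs ended on GAACT, and the pentamer around the 5′ A was TGAAC in 20 of these pairs, while it was GGAAC in 9 pairs and in the remaining 3 it was AGAAC. The 5′ A lay between percentiles 2.56 and 95.5 of column 5 with a median of 66.4, and the 3′ A between 31.9 and 99.9 with a median of 92.1, and the 3′ A was the higher of the pair in 32 of 36. None of the 5′ A was listed at 300, 100 or 50 ng or in WT mESC, whereas 21 of the 3′ A were listed at 300 ng, 4 at 100 ng, 3 at 50 ng and 17 in WT mESC. These pentamers were held by 35 clustered sites and by no isolated site. They were rare even beside GAACT, since 32 of 6442 GAACT sites (0.497%) had the A before them called.

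Of the adjacent pairs, 31 lay in a 3′ UTR, 5 in exons outside the main transcript and none in the CDS, although 3012 GAACT sites lay in the CDS and 2719 in the 3′ UTR. In Coro6, a coronin gene, the 5′ A stood in percentile 77.6 and the 3′ A in 99.8, and the 3′ A alone was listed at 300, 100 and 50 ng. In Nipsnap2 the percentiles were 91.2 and 99.4, with the 3′ A alone listed at 300, 100 and 50 ng and in WT mESC. In Pln, which encodes phospholamban, the inhibitor of the calcium pump of the sarcoplasmic reticulum, they were 68.7 and 99.9. Ryr2, the calcium release channel gene, had 88.3 and 94.8. Adjacent pairs were also present in the other lists, 2 at 300 ng, 6 in WT mESC and 25 in HEK293T cells. The 3′ A was the higher in every one of them, by the m6Aboost prediction score in WT mESC and HEK293T cells.

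**Figure D3:**
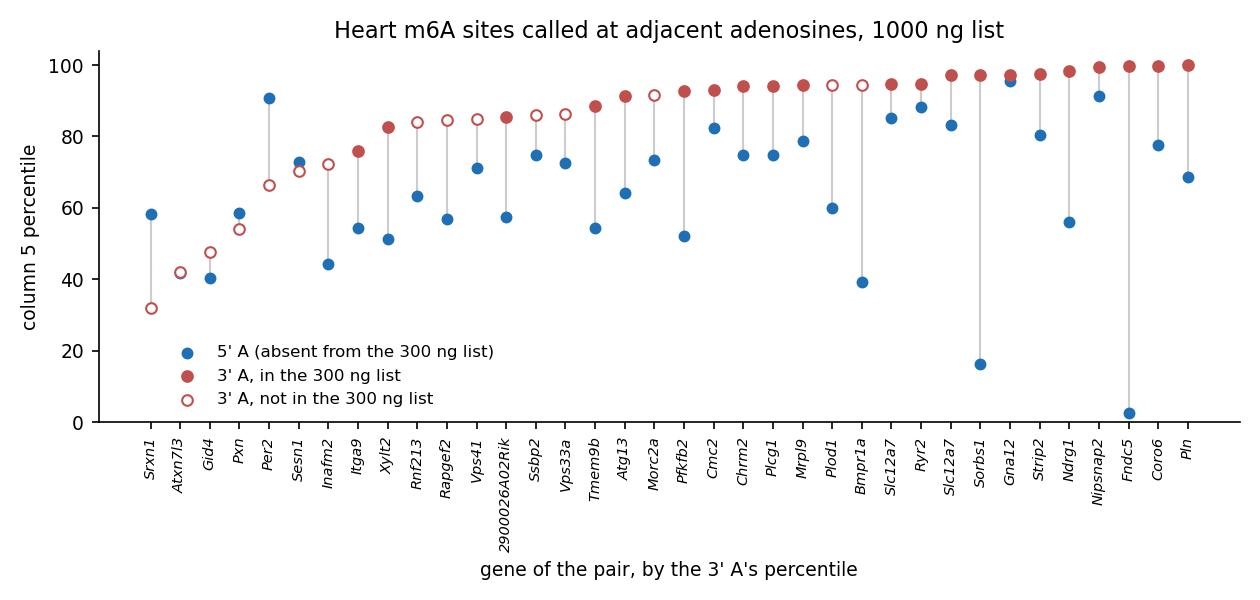
Column 5 percentile (vertical axis) of both members of the 36 heart pairs at adjacent A, 1 column per pair named by its gene and ordered by the 3′ A. Blue points give the 5′ A, red points the 3′ A, filled where the 3′ A was listed at 300 ng. The 3′ A is the higher in 32 pairs, and the 21 filled points lie between percentiles 75.8 and 99.9, the open ones between 31.9 and 94.5.

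Beyond adjacent A, the order of the sites along the RNA was little related to their rank in the heart list. The 3′ member had the higher column 5 value in 51.3% of all pairs (48.9 to 53.7%) and in 50.5% (48.1 to 52.9%) of pairs at 4 to 10 nt. At 300 ng the share at 4 to 10 nt was 47.0% (40.6 to 53.4%). In WT mESC it was 55.3% (52.3 to 58.4%) and in HEK293T cells 52.9% (50.8 to 55.1%), both with intervals above 50%. Column 5 in WT mESC and HEK293T cells is the m6Aboost prediction score, which is not the measure of the heart lists. In the 1000 ng heart list, the 3′ member was the higher in 41.6% (34.8 to 48.8%) at 4 nt and in 58.1% (51.5 to 64.5%) at 7 nt. These were the lowest and the highest share of the distances from 4 to 10 nt. The other distances lay between 48.1% at 9 nt and 53.4% at 5 nt, each with an interval that held 50%. Where only the 5′ member was at DRACH, the 3′ member was the higher in 37.1% (28.8 to 46.1%). Where only the 3′ member was at DRACH, at 4 to 10 nt, it was the higher in 56.1% (47.8 to 64.1%). The ranks within a pair were loosely related, with Spearman's rho of 0.346 over 1718 pairs within 10 nt and 0.332 over 2161 pairs at 11 to 20 nt, which share gene and library, and the median difference within a pair was 21.3 percentile points.

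Clustered sites ranked above isolated sites, with a median percentile of 58.7 (quartiles 30.8 and 82.0) against 49.3 (24.6 and 74.3). The rank was related to the distance over a wider range than the window, since the median was 58.8 for sites with their nearest neighbour at 11 to 20 nt, 56.4 at 21 to 50 nt, 51.6 at 51 to 200 nt and 37.7 beyond 200 nt. Of the 55 sites tied at the highest value of the list, 5 were clustered, against 7.43% of all sites in gene bodies. Among the 5 were the 3′ A of Pln and the 5′ members of 2 clusters of Ttn, the gene of the giant sarcomere protein titin.

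In the 300 ng list, 25.1% of clustered sites (23.7 to 26.6%, 848 of 3376) were found again at the same position, against 17.4% of isolated sites (17.1 to 17.8%, 7339 of 42059). The difference was 7.67 percentage points (6.19 to 9.20). At 100 ng the shares were 3.32% and 2.23%, and at 50 ng 0.977% and 0.473%. The difference was 3.01 points (1.77 to 4.25) when sites were compared within deciles of column 5, and clustered sites had the larger share in each of the 10 deciles. In the top decile 77.1% of clustered and 73.7% of isolated sites were found again, with overlapping intervals.

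At 300 ng no difference was detectable from sites a little farther apart. Against sites with their nearest neighbour at 11 to 20 nt, of which 24.4% were found again, the difference was 0.723 points with an interval from -1.24 to 2.7. The share was 22.1% at 21 to 50 nt, 17.6% at 51 to 200 nt and 10.8% beyond 200 nt. Among genes with a clustered site the difference between clustered and isolated sites was 3.15 points (1.52 to 4.82). Both comparisons were chosen after seeing the data. Read coverage of the genes is not in the lists, and its part in these shares was not tested.

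**Figure D4:**
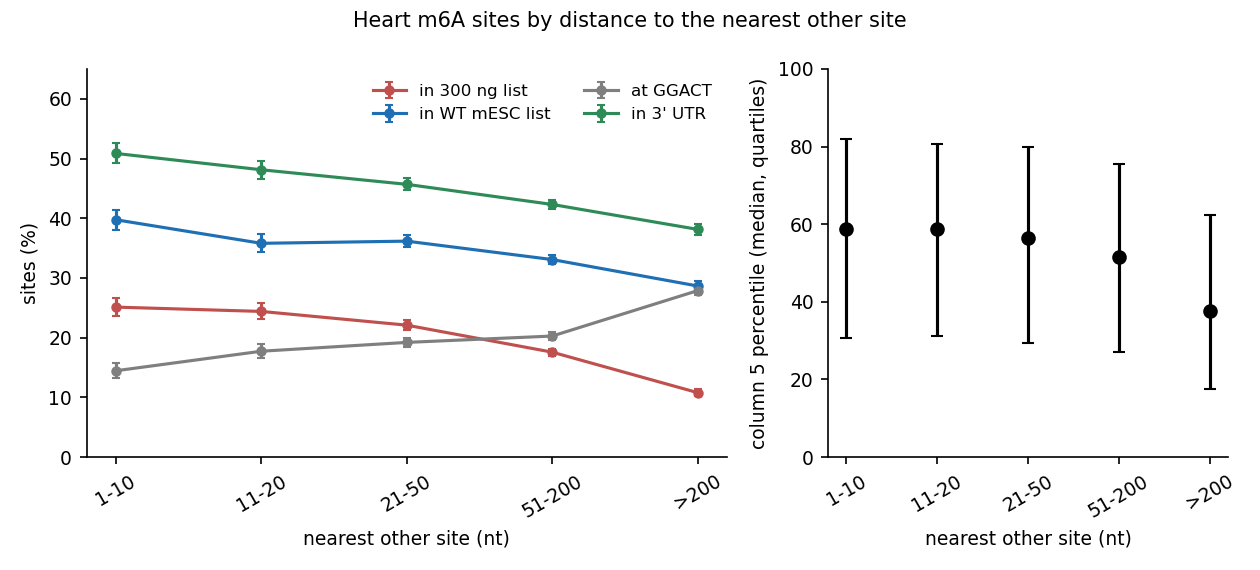
Left, share of heart sites of the 1000 ng list in percent (95% Wilson intervals) that are listed at 300 ng or in WT mESC, lie at GGACT or lie in a 3′ UTR, by the distance to the nearest other site in nt. Right, median column 5 percentile with its quartiles. The share found at 300 ng goes from 25.1% within 10 nt to 10.8% beyond 200 nt, while the share at GGACT goes from 14.5 to 27.9%.

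The larger share at 300 ng was seen at each of the 6 most frequent motifs. It was 33.4% of clustered and 17.5% of isolated sites at GAACT (difference 15.95, 11.7 to 20.5), and 33.8% and 22.1% at GGACT (11.7, 7.56 to 16.1). The smallest difference was at TGACT, with 20.8% and 16.2% (4.60, 0.298 to 9.55). In the CDS the shares were 25.4% and 18.5%, and in the 3′ UTR 24.8% and 17.4%. In genes with 20 or more sites they were 30.3% and 25.7%, and there the interval of the difference (-0.0697 to 9.56) held 0.

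The WT mESC list came from other cells, but m6Aboost was trained on mESC peaks. The heart calls are thus not independent of the WT mESC sites, and the part of this in the shared sites was not tested. The WT mESC list held 39.8% of clustered sites (38.1 to 41.4%) and 32.9% of isolated sites (32.4 to 33.3%), a difference of 6.89 points (5.19 to 8.61). Within deciles of column 5 the difference was 4.22 (2.56 to 5.87), and in 9 of the 10 deciles clustered sites had the larger share. Against sites with their nearest neighbour at 11 to 20 nt it was 3.95 (1.73 to 6.16), so here the interval stayed above 0. Among genes with a clustered site it was 9.001 (7.15 to 10.9).

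**Figure D5:**
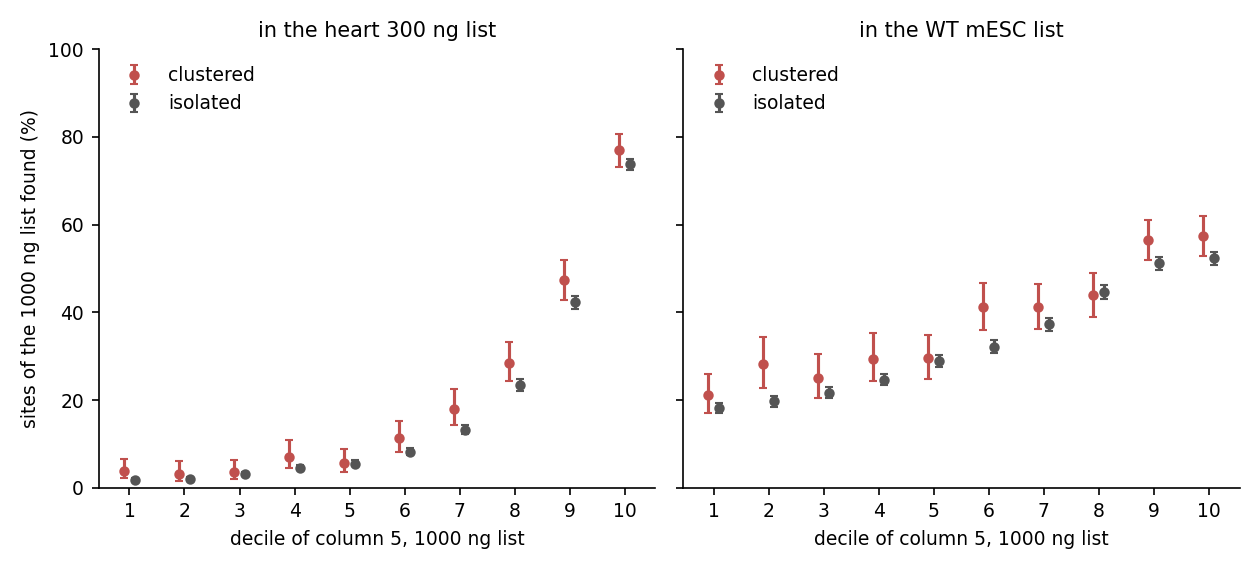
Share of the heart sites of the 1000 ng list found in the 300 ng heart list (left) and in the WT mESC list (right), in percent with 95% Wilson intervals, by decile of column 5 (10 is the highest), for clustered (red) and isolated (grey) sites. At 300 ng the shares go from 3.85% and 1.75% in the lowest decile to 77.1% and 73.7% in the highest.

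Most pairs were not found whole at the lower input. Of the 1599 clusters of 2 sites, 175 (10.9%) had both sites at 300 ng, 447 had 1 and 977 had none. At 100 ng 8 had both and at 50 ng 1, and in WT mESC 455 (28.5%) had both and 359 had 1. If a site of such a pair was listed at 300 ng, its partner was listed in 43.9% of cases, and if it was absent, in 18.6%. In WT mESC the shares were 71.7% and 18.6%. Over all pairs within 10 nt in genes with a site in the list concerned, the partner of an absent site was listed in 29.6% of cases at 300 ng and in 37.2% in WT mESC. Where only 1 site of a pair was found, it was the one with the higher column 5 in 79.0% of cases (74.95 to 82.5%) at 300 ng and in 76.6% (72.0 to 80.7%) in WT mESC. For neighbours at 11 to 20 nt, the partner of a listed site was listed in 41.9% of cases at 300 ng and in 68.3% in WT mESC.

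Counted by cluster, 654 of 1658 (39.4%) had at least 1 member at 300 ng and 191 (11.5%) at least 2, and 178 had every member. None had 2 members at all 4 inputs, and 11 had 2 members at 1000, 300 and 100 ng. The 11 were chosen after seeing the data and lay in Ttn, Bmp10, Hspa5, Hras, Cacna1c, Got2, Slc8a1, Hist1h1c, Kdr, Ptp4a3 and Ppp1r37. In Bmp10, a growth factor gene of the developing heart, the sites stood in percentiles 99.2 and 99.8 and were both listed at 300 and 100 ng. They were absent in WT mESC, where expression of the gene was not examined. The 3 sites in the 3′ UTR of Hspa5, the gene of an endoplasmic reticulum chaperone, stood in percentiles 82.3, 99.2 and 99.6 from 5′ to 3′. They lay 39, 44 and 52 nt after the last base before the stop codon. All 3 were at 300 ng and in WT mESC, 2 at 100 ng and the last 1 at 50 ng. The only cluster with both sites at 50 ng was in the CDS of Fbxw5, an F-box protein gene, where neither site was listed at 100 ng.

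High ranks of both sites were found at each of the frequent distances. Among pairs with both sites at 300 ng, the pair with the highest lower rank at 9 nt lay in the CDS of Hspa5 (percentiles 99.2 and 99.7), at 10 nt in the CDS of Ahnak (99.8 and 99.6), at 7 nt in the 3′ UTR of the linker histone gene Hist1h1c (98.1 and 98.5) and at 5 nt in the 3′ UTR of Acacb, an acetyl-CoA carboxylase gene (98.7 and 99.0). At 8, 6 and 4 nt it was the pair printed for Ttn, Bmp10 and Fabp3. These pairs were picked for their ranks. The clusters of 3 sites were picked by the smallest spans, with the higher column 5 deciding only among equal spans, and they differed among themselves. In Map1a, a microtubule-associated protein gene, 3 sites within 8 nt stood in percentiles 55.1, 11.8 and 24.4 and none was listed at 300 ng or in WT mESC. In Camk1d, a calmodulin-dependent kinase gene, the 3 sites had 51.2, 28.2 and 16.6, none was at 300 ng and all were in WT mESC. In Bmpr1a, a receptor of bone morphogenetic proteins, the ranks were 97.8, 39.3 and 94.5, and the first alone was at 300 ng. Gid4, Atxn7l3, Adsl and Zfp746 held further such clusters, with no site at 300 ng.

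Read from the 300 ng list, the clusters were mostly part of the longer list. Of its 459 clustered sites, 419 (91.3%) were sites of the 1000 ng list and 382 (83.2%) were clustered in both, while 7768 of 8301 isolated sites (93.6%) were in the 1000 ng list. The position was kept exactly. Of the 8760 sites in gene bodies at 300 ng, 8187 coincided with a 1000 ng site, 2 lay 1 to 2 nt from one, 65 lay 3 to 10 nt away and 506 farther.

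Clustered sites lay more often in the 3′ UTR. It held 50.9% of clustered and 42.5% of isolated sites (difference 8.33, 6.58 to 10.1), and the CDS 40.2% and 47.2% (-6.94, -8.65 to -5.21). Within 200 nt of the last base before the stop codon lay 37.9% (36.2 to 39.6%) and 29.1% (28.6 to 29.5%). The median distance from that base in the 3′ UTR was 232 nt for clustered and 307 nt for isolated sites. The last exon of the main transcript held 79.2% (77.8 to 80.6%) and 71.3% (70.8 to 71.7%). Introns held 0.504% and 1.71%. The share in the 3′ UTR was related to the distance over a wider range than the window. It was 50.9% (49.2 to 52.5%) within 10 nt and 48.1% (46.6 to 49.7%) at 11 to 20 nt, with overlapping intervals. Farther out it was 45.7% at 21 to 50 nt, 42.3% at 51 to 200 nt and 38.1% beyond 200 nt. The CDS held 44.9% (43.4 to 46.4%) of sites with their nearest neighbour at 11 to 20 nt. The transcript region is also an input of m6Aboost, and its part in these shares was not tested.

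The CDS sites outside the last exon were in long exons. Exons of at least 400 nt held 93.3% (91.0 to 95%, 568 of 609) of the clustered and 82.8% (82.0 to 83.5%) of the isolated ones. Codon position 2 held 47.1% (44.5 to 49.8%) of clustered CDS sites, 48.7% of isolated ones and 49.3% of the DRACH motifs of these transcripts. Of the clusters, 827 lay wholly in a 3′ UTR and 657 in a CDS, and 25 had members in both. Bases of the stop codon are counted here as 3′ UTR.

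The genes of the clusters were those with many sites. Of 8695 genes with a site, 1403 (16.1%) had a cluster, 1184 of them 1, 188 of them 2 and 31 of them 3 or 4. A cluster was present in 6.95% of genes with 2 to 4 sites, 24.2% with 5 to 9, 45.8% with 10 to 19 and 64.7% with 20 or more. The share of sites that were clustered was 4.92%, 8.25%, 9.13% and 7.55% in these classes. Protein-coding genes held 3277 (97.1%) of the members.

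The 5 genes with the most clustered sites each had 8 of them in 4 pairs. They were Virma, a subunit of the m6A methyltransferase complex, Sel1l, an adaptor in the degradation of endoplasmic reticulum proteins, Xist, the noncoding RNA of X inactivation, Kmt2d, a histone H3 lysine methyltransferase, and Ttn. Tent5b had 7, and Stk38, Gm12295, Pfkfb2 and Poglut1 had 6, as did further genes with a tied count. The 8 were of 18 sites in Virma, 20 in Sel1l, 30 in Xist, 57 in Kmt2d and 196 in Ttn. Of the 8 clustered sites of Virma, with percentiles from 9.64 to 83.6, none was listed at 300 ng, whereas 4 were in WT mESC. In Xist the 8 stood between percentiles 2.20 and 98.5, 2 were at 300 ng and none in the WT mESC list. In Ttn they stood between 40.1 and 99.9, 4 were at 300 ng, and none was in WT mESC. Whether Xist and Ttn were expressed in WT mESC was not examined.

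Genes that define heart muscle differed in how many clusters they held. Of 24 sarcomere genes 21 had sites and 2 had clusters, Ttn with 8 and Xirp1, an actin-binding protein of the intercalated disc, with 6 of its 33 sites, so that 14 of 372 sites (3.76%) were clustered, against 7.43% in all gene bodies. Xirp2, with 40 sites, had none. Of 10 calcium handling genes all had sites and 5 had clusters, with 14 of 131 sites (10.7%) clustered, against 7.43% in all gene bodies. Cacna1c, the pore-forming subunit of the L-type calcium channel, had 6, and Ryr2, Pln, Slc8a1 (the sodium-calcium exchanger) and Jph2 (junctophilin) had 2 each. Of 10 genes of ion channels and gap junctions 9 had sites and 4 had clusters. Of their 114 sites 10 (8.77%) were clustered, against the same 7.43%, among them Gja1 (connexin 43) with 4 and Kcnj2 and Kcnj3 with 2 each. For the gene counts of these lists, 16.1% of all genes with a site had a cluster, and 45.8% of genes with 10 to 19 sites.

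In Cacna1c the cluster that kept both sites at 300 and 100 ng lay in the CDS, in percentiles 99.0 and 95.3. Its sites were 121 and 112 nt ahead of the last base before the stop codon. A second CDS pair had percentiles 74.3 and 93.3, and the latter site alone was at 300 ng. The third pair had an A outside DRACH, in GTATA, in percentile 98.5 and an AAACA 4 nt later in 76.9, and neither was listed at 300 ng. Fabp3, the fatty acid binding protein of heart muscle, had the same 2 pentamers at the same distance in its 3′ UTR, in percentiles 99.8 and 97.7, both listed at 300 ng and in WT mESC. In Gja1 the CDS pair stood in percentiles 97.2 and 99.8. None of the Cacna1c, Kcnj2, Kcnj3, Ryr2, Pln, Slc8a1 and Jph2 cluster members was in the WT mESC list, whereas 1 of the 4 of Gja1, in its 3′ UTR, was. Expression of these genes in WT mESC was not compared, so such an absence cannot be told apart from a gene not expressed there.

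Of 12 cardiac transcription factor genes all had sites and 2 had clusters, against 16.1% of all genes with a site, and 5 of their 84 sites (5.95%) were clustered, against 7.43% in all gene bodies. The 2 were Gata6 with 3 of its 9 sites and Tbx5 with 2 of 9. In the 3′ UTR of Tbx5 the 5′ site stood in percentile 3.48 and the 3′ site in 90.8, and only the latter was at 300 ng. Of 18 genes of the m6A machinery 13 had sites and 4 had clusters, and 16 of their 136 sites (11.8%) were clustered, against the same 7.43%, with 8 of the 16 in Virma. Besides Virma these were Zc3h13 and Rbm15, further members of the methyltransferase complex, with 4 and 2, and the reader Ythdf1 with 2. Both Ythdf1 sites and both Rbm15 sites were in WT mESC. Among marker genes, sites were present in 5 of 8 for cardiomyocytes, 6 of 6 for fibroblasts and 5 of 5 for endothelium. They were present in 3 of 4 for smooth muscle, 2 of 4 for immune cells and 0 of 6 for other tissues. Clusters were in 3, 2, 2, 0, 0 and 0 of these genes, against 16.1% of all genes with a site. Clustered were 12 of 240 sites (5%) in cardiomyocyte, 4 of 37 (10.8%) in fibroblast and 4 of 50 (8%) in endothelial markers, against 7.43% in all gene bodies. The smooth muscle markers held 7 sites and the immune markers 5, too few to read their lack of clusters as a trait. A site list holds no expression values, and a gene without sites may still be expressed.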

How the data were processed

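miCLIP2 site lists were used as deposited for mouse heart (4 inputs, 1 library each), WT mESC and HEK293T cells, and no reads were mapped again. According to the study's methods, the authors aligned trimmed reads by STAR, collapsed PCR copies by UMI-tools, called peaks by PureCLIP and ran m6Aboost on those peaks that fall on an adenosine. The submitters' processing notes name STAR 2.6.1b and 2.7.3a, UMI-tools 1.0.0 and bedtools 2.27.1. Peaks had to be found in at least 2 replicates, and how this was handled for single heart libraries is not given in the sources used here. The score deposited by the authors in column 5 of the heart lists has no stated scale and reaches 708. Column 5 of the mESC and HEK293T lists, deposited as a fraction between 0.5 and 1, is the m6Aboost prediction score. The titles of the heart samples at 300, 100 and 50 give µg, whereas the list names and the methods give ng, which was used. RNA-seq counts and other miCLIP2 samples were not used here.

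Positions are 1-based on GRCm38. Gene bodies, exons and the longest coding (main) transcript were taken from GENCODE M21 (human: GENCODE 44), while the authors used M23. The annotated CDS ends before the stop codon, so bases of the stop codon were counted as 3′ UTR. Clusters joined neighbours on the same strand at gaps of at most 10 nt. Lists were matched by exact position and strand. Unless stated, a site also counted as absent where its gene had no site in the other list. The expected pairs were computed exactly, as motif pairs at each distance times the share of motif pairs called in that gene and region, and the computation was checked on simulated sites. Shares have 95% Wilson intervals, differences Newcombe intervals and pair counts Poisson intervals. With 1 library per input no test between inputs was possible. Python 3.11.15, NumPy 2.4.6, pandas 2.3.3, SciPy 1.17.1, pysam 0.24.0 and Matplotlib 3.10.9 were used.

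The members, gene lists and measures were chosen with earlier results of these data known. Named are the 10 genes with most clustered sites, the 8 clusters with most sites, clusters with 2 members at every input (none), the pair with the highest lower rank at each frequent spacing among pairs with both sites at 300 ng, and up to 5 genes of each list. Adjacent A, tandem repeats, Fbxw5 and the 11 clusters with 2 members at 1000, 300 and 100 ng were added after their values were seen, as were the isolated site comparisons within genes with a cluster and at 11 to 20 nt. Alternatives covered the window, the regions and genes used, the motif, the expected pairs and the matching of lists.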

Additional observations from a re-analysis of the deposited data

How the results depend on the processing

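Of 36 alternative values of 8 results, none changed its side of 0 (or of 1 for the ratio, 50% for the 3′ member) where the interval excluded it, and 20 stayed within the 95% interval. The share of clustered sites cannot fall below 0, and the main interval of the 3′ member held 50%. For both, no change of side could be counted. Of the 36 values, 6 were chosen after seeing the data. The share of clustered sites was 1.96% with a window of 5 nt, 16.3% with 20 nt and 6.03% for sites at or above the median of column 5. The ratio of observed to expected pairs was 1.72 for RRACH, 2.53 over whole transcripts, 1.05 in 200-nt stretches (its interval held 1) and 1.67 at 4 to 5 nt. The difference in recovery at 300 ng was 3.01 points within deciles of column 5, 5.37 with a window of 5 nt, 3.15 in genes with a clustered site and 0.723 against sites with a neighbour at 11 to 20 nt. In WT mESC it was 4.22, 9.001 and 3.95 for the first and the last 2 of these. The 3′ member was the higher in 47.1% of pairs with the same pentamer, and the difference in motif share was -6.07 for RRACH. Leaving out Ttn or the 10 genes with most sites kept each value for which it was tried within its interval. No paired analysis was possible because each input has 1 library and the results come from no test. The lists hold no read depth, so a site missing at a lower input cannot be told apart from one that was not covered.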

Other observations

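Of the 986 heart sites outside gene bodies of their strand, 34 (3.45%, 2.48 to 4.78%) had another such site within 10 nt. They formed 17 clusters, all 34 were at DRACH, and 8 of them lay in a gene body on the other strand.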
